A study of Mus musculus with 24 samples.

Results

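The genes described here encode transcription factors reported to bind the KIX domain of the coactivators CBP and p300: Creb1, Crem, Atf1, Kmt2a, Foxo3, Srebf1, Srebf2, Tcf3 and Trp53. They were chosen by name and matched by gene symbol to 9 of the 51826 genes in the count table. RNA-Seq was run on dorsal hippocampus of male mice aged 2 to 4 months on a C57BL/6j background. The comparisons set WT animals against littermates homozygous for CBP KIX/KIX, a germline knock-in of point mutations in the KIX domain that is present in every cell of the body, so a difference seen in the hippocampus need not arise there. The first experiment (RNA-Seq 1, total RNA depleted with Ribo-Zero gold) held 3 WT homecage animals, 3 WT animals trained in the Morris water maze (WT MWM) and 3 CBP KIX/KIX animals trained in the maze (KIX MWM). The second experiment (RNA-Seq 2, poly-A selected) held 3 WT homecage animals, 4 WT animals trained in contextual fear conditioning (WT CFC), 4 trained CBP KIX/KIX animals (KIX CFC) and 4 CBP KIX/KIX homecage animals (KIX homecage). Trained animals were sampled 1 h after training. Total counts per library ran from 38.2 M to 65.7 M in RNA-Seq 1 and from 15.4 M to 46.1 M in RNA-Seq 2. Task, library type and sequencing experiment changed together, so these 3 cannot be told apart.

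KIX is a small folded domain that binds short activating segments of transcription factors and so brings the acetyltransferases CBP and p300 to their target genes. CREB binds it after phosphorylation by kinases that respond to cAMP and calcium, while factors such as KMT2A bind a separate surface of the same domain and can be bound together with CREB. In the hippocampus, CREB-dependent transcription after neuronal activity is needed for memory that lasts. CREB, CREM and ATF-1 form 1 family of bZIP factors, SREBP-1 and SREBP-2 (genes Srebf1 and Srebf2) are membrane-held factors that switch on lipid genes, KMT2A is a histone H3 methyltransferase, FOXO3 acts when insulin and AKT signalling is low, TCF3 gives the E proteins E12 and E47, and Trp53 encodes p53.

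Markers of hippocampus and neurons were present in every library. The 6 subfield markers (Prox1, C1ql2, Wfs1, Fibcd1, Spink8 and Neurod6) summed to between 585 and 1381 CPM (counts scaled to library size by the upper quartile), and none of them was at 0. The 3 neuronal markers, led by Snap25, summed to between 1326 and 2773 CPM. Markers of choroid plexus, tissue that lies against the hippocampus, varied within groups: their 8 genes, led by Ttr, summed to 30.5, 1665 and 33.3 CPM in WT homecage of RNA-Seq 2 and to 38.8, 4163, 1718 and 1812 CPM in WT CFC. None of the 8 was at 0 in any library.

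Some libraries stood apart. In WT homecage of RNA-Seq 1, replicates 1 and 2 had normalization factors of 0.757 and 0.758, against 0.896 for replicate 3 and 0.821 to 0.881 for the 6 MWM libraries. Among the members, Srebf2 read 359, 376 and 235 CPM in these 3 libraries, and Creb1 read 28.8, 32.4 and 45.9 CPM. Replicate 3 was thus apart from its group partners for both genes. KIX MWM replicate 2 had the lowest total count (38.2 M) and the lowest Srebf2 level (206 CPM) of RNA-Seq 1. In KIX homecage, the astrocyte gene Gfap read 304, 554, 800.3 and 1442 CPM, against 225 to 335 CPM in the other 11 libraries of RNA-Seq 2. Replicate 3 of KIX homecage also had 105 CPM of Fos, against 2.55, 1.64 and 4.32 CPM in replicates 1, 2 and 4. Members' results are given with and without these libraries where they move most.

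All 9 members passed the low-count filter in each of the 7 comparisons. On GRCm38 (GENCODE), Creb1 (ENSMUSG00000025958.14) lies at chr1:64532645-64604548, Crem (ENSMUSG00000063889.16) at chr18:3266048-3337748 and Atf1 (ENSMUSG00000023027.12) at chr15:100227819-100261244. Srebf2 (ENSMUSG00000022463.7) lies at chr15:82147181-82205379 and Srebf1 (ENSMUSG00000020538.15) at chr11:60199089-60222581, on the same chromosome as Trp53 (ENSMUSG00000059552.13) at chr11:69580359-69591873. Foxo3 (ENSMUSG00000048756.11) at chr10:42181841-42276755 and Tcf3 (ENSMUSG00000020167.14) at chr10:80409514-80433647 share chromosome 10, and Kmt2a (ENSMUSG00000002028.13) lies at chr9:44803355-44881296. No member lies on chromosome 16, where the mutated gene Crebbp (ENSMUSG00000022521.10) is found at chr16:4081328-4213997. An exon of Srebf1 overlaps an exon of Rai1 on the opposite strand, and whether reads were counted by strand is not stated, so reads from that overlap may be assigned to either gene or to neither. Exons of Crem and Kmt2a overlap exons of the noncoding genes Gm6225 and AC061963.1 on the opposite strand. Over the 24 libraries Srebf1 had 101169 counts and Rai1 103546, Crem had 8391 counts and Gm6225 761, and Kmt2a had 162765 counts and AC061963.1 2521.

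Between genes, levels were compared per kilobase of merged exons. Srebf2 was the highest member in both experiments, with a median of 36.1 CPM per kb over the 9 libraries of RNA-Seq 1 and 27.0 over the 15 of RNA-Seq 2. Crem was the lowest, with medians of 1.22 and 1.81 CPM per kb. The order in RNA-Seq 1 ran Srebf2, Srebf1, Foxo3, Kmt2a, Tcf3, Trp53, Creb1, Atf1, Crem, and in RNA-Seq 2 it ran Srebf2, Srebf1, Kmt2a, Tcf3, Foxo3, Trp53, Atf1, Creb1, Crem. Neighbours whose library ranges overlapped are not ordered beyond their spread: in RNA-Seq 1 these were Srebf2 and Srebf1, Kmt2a and Tcf3, and Creb1 and Atf1. In RNA-Seq 2, Srebf2 stood clear of all other members, and the overlapping neighbours ran in a chain from Srebf1 through Kmt2a, Tcf3 and Foxo3 to Trp53, with Atf1 and Creb1 a further pair. Crebbp itself, the gene for CBP, had medians of 14.2 and 4.89 CPM per kb.

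**Figure D1:**
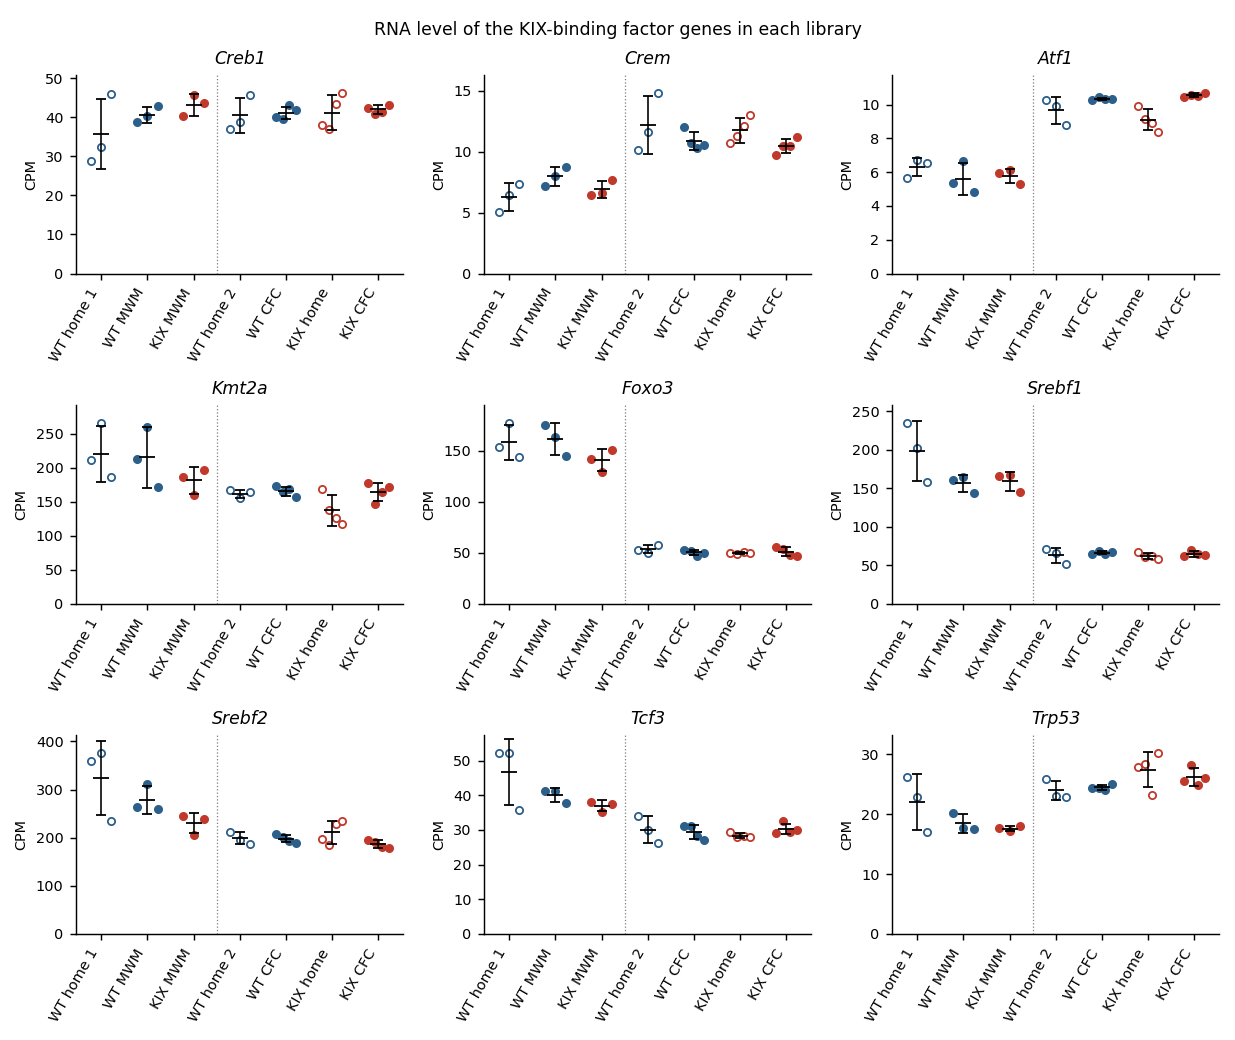
CPM of each member in every library (points, by replicate number from left to right within a group), with the group mean and SD (black), 3 or 4 animals a group. Blue is WT, red is CBP KIX/KIX, open points are homecage animals, and the dotted line parts RNA-Seq 1 (total RNA) from RNA-Seq 2 (poly-A). Srebf2 in KIX MWM (206 to 245 CPM) lies below WT MWM (259 to 311 CPM).

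Several members differed more between the experiments than between groups within either. In WT homecage animals, mean CPM of Srebf1 was 3.15 times as high in RNA-Seq 1 as in RNA-Seq 2, and that of Foxo3 was 2.97 times as high. Crebbp showed a ratio of 3.20. The opposite was seen for Crem (0.513) and Atf1 (0.653). For Crem, Atf1, Foxo3, Srebf1 and Tcf3, the ranges of all libraries of one experiment lay outside those of the other. Shares within a family moved too. Of the summed CPM per kb of the CREB family, Creb1 held 41.8% to 51.7% in RNA-Seq 1 and 34.7% to 40.5% in RNA-Seq 2, Atf1 25.4% to 38.8% and 33.0% to 43.2%, and Crem 17.3% to 24.1% and 20.2% to 28.9%. The ratio of Srebf2 to Srebf1 per kb ran from 0.966 to 1.48 in RNA-Seq 1 and from 2.17 to 3.17 in RNA-Seq 2. Library type, sequencing experiment and mice changed together here, so no level is compared across experiments below.

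The first comparison asked how the KIX mutation altered RNA after learning, with MWM and CFC animals fitted together and the experiment and 4 factors of unwanted variation in the model. edgeR called 520 of 21489 genes at an adjusted p under 0.05 (2.42%), 309 of them lower in CBP KIX/KIX (1.44%) and 211 higher (0.982%). Of the members, 1 of 9 was called, Srebf2, which was lower. DESeq2 called 886 genes (4.12%) and the same 1 member. Without the factors, edgeR called 4 genes (0.0186%) and 0 members, 1 at an unadjusted p under 0.05, so the call of Srebf2 rests on the factor model. At an unadjusted p under 0.05 were 2 of the 9 members and 3830 of all genes tested (17.8%). With 9 members, a single call cannot be read as a share above the background.

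Srebf2 makes the SREBP that acts mainly on cholesterol synthesis and uptake. Its level was 264, 311 and 259 CPM in WT MWM and 245, 206 and 238 CPM in KIX MWM. In RNA-Seq 2 it was 207, 202, 194 and 189.7 CPM in WT CFC and 194, 192, 182 and 178 CPM in KIX CFC. The MWM groups did not overlap and the CFC groups did, with all 7 CBP KIX/KIX animals below the WT mean of their experiment. Group means were 278 ± 28.3 CPM (SD, n = 3) against 229.8 ± 20.8 (n = 3), and 198 ± 7.78 (n = 4) against 186 ± 8.07 (n = 4). The log2 fold change was -0.16 (SE 0.03, 95% confidence interval -0.23 to -0.10, edgeR adjusted p 0.0147), a fold of 0.892. Within RNA-Seq 1 alone it was -0.27 (adjusted p 0.439) and within RNA-Seq 2 alone -0.09 (adjusted p 1.00). The difference between those values was not called (0.18, 95% interval -0.03 to 0.40, adjusted p 0.760). The sign was negative in all 24 alternatives, with adjusted p from 3.43e-05 to 1.00. KIX MWM replicate 2 was the lowest library of RNA-Seq 1 both for Srebf2 and in total count (38.2 M). Leaving it out took the adjusted p to 0.0710. Correction for GC content took the adjusted p to 0.0618 (log2 fold change -0.12). In bulk tissue, fewer cells that express a gene and less RNA per cell cannot be told apart.

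The other 8 members were not called, though with the replicate block beside the factors Kmt2a (adjusted p 0.00145) and Foxo3 (0.0452) were called lower as well. That fit called 2877 genes in all, against 520 in the main fit, and the block without factors called 8. In the main fit Foxo3 came nearest, at -0.07 (interval -0.14 to -0.01, unadjusted p 0.0282, adjusted p 0.215). It read 176, 163 and 144 CPM in WT MWM and 142, 129 and 151 CPM in KIX MWM, and in RNA-Seq 2 52.9, 52.0, 47.2 and 50.1 CPM in WT CFC and 55.5, 54.0, 47.8 and 47.1 CPM in KIX CFC. Foxo3 was thus lower in the 3 KIX MWM libraries than the WT mean, with overlap, and mixed in CFC, where its log2 fold change turned to 0.02 from -0.19 in RNA-Seq 1. Kmt2a was at -0.11 (interval -0.22 to 0.01), being -0.24 in RNA-Seq 1 and -0.01 in RNA-Seq 2. Creb1, the member best known for memory, was at 0.06 (interval -0.01 to 0.13), with 38.7, 40.4 and 42.9 CPM in WT MWM, 40.2, 45.7 and 43.6 CPM in KIX MWM, 40.1, 39.5, 43.1 and 41.9 CPM in WT CFC and 42.5, 40.8, 41.5 and 43.2 CPM in KIX CFC. The Creb1 groups overlapped in both experiments, and the sign turned to -0.02 with GC correction. Crem was at -0.12 (interval -0.27 to 0.02) and Atf1 at 0.04 (interval -0.10 to 0.18). Atf1 in KIX CFC lay just above all of WT CFC, at 10.4 to 10.7 against 10.2 to 10.4 CPM. Srebf1 was at -0.00 (interval -0.07 to 0.06), Tcf3 at -0.03 (interval -0.11 to 0.05) and Trp53 at 0.03 (interval -0.05 to 0.11). The median of the 9 members was -0.03, against -0.01 for all genes tested.

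Crebbp RNA did not pass the threshold either, at -0.01 (interval -0.10 to 0.07, adjusted p 0.897). The 3 genes whose proteins carry a KIX domain had 0 edgeR and 0 DESeq2 calls, with 0 at an unadjusted p under 0.05, from Ep300 at -0.07 to Crebbp. The 5 other reported KIX partners had 0 calls by either tool (2 at an unadjusted p under 0.05), from Gli3 at -0.05 to Myb at 0.39. Of 8 paralogs of the members, edgeR called 1 higher, the p53 relative Trp63 at 0.50 (adjusted p 0.0241), and DESeq2 called 0. Trp63 was scarce, at 1.03 to 1.13 CPM in WT MWM and 1.42 to 1.78 in KIX MWM, and 1.72 to 2.09 in WT CFC and 2.17 to 2.93 in KIX CFC. All 7 CBP KIX/KIX libraries were above the WT range of their experiment.

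Of the lists, CREB targets had the most calls: edgeR called 11 of 20 lower and 0 higher, with a median of -0.25 against -0.01 for all genes tested, and DESeq2 called 13 lower. The lists were chosen with earlier results of these data known, so these counts and medians are a description and not an independent test. Fos, an immediate early gene, read 22.6, 21.98 and 17.7 CPM in WT MWM and 13.9, 12.8 and 15.9 CPM in KIX MWM, then 29.8, 22.2, 29.7 and 30.2 CPM in WT CFC and 19.8, 16.04, 22.4 and 21.5 CPM in KIX CFC. Every CBP KIX/KIX library was below its WT mean, and the ranges overlapped only in CFC. Fos had the lowest value of the list, at -0.51 (adjusted p 0.000936), followed by Nptx2 at -0.49, Nr4a2 at -0.45, Dusp1 at -0.36 and Fosb at -0.35. Pcsk1, Junb and Nr4a1 were each at -0.31, Per1 at -0.30, Gadd45b at -0.26 and Sst at -0.19 (adjusted p 0.0495). Summed over the 20 targets, of which Vgf was the most abundant, WT CFC read 1302, 1257, 1189 and 1193 CPM and KIX CFC 1118, 1056, 1029 and 1083. WT MWM read 1317, 1359.8 and 1198 CPM and KIX MWM 1146, 1023 and 1218. The sums did not overlap in CFC and overlapped in MWM. Without the factors 1 of the 20 was called, at a median of -0.26.

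CREB itself is regulated chiefly by phosphorylation and by its CRTC coactivators. Of the 9 genes for CREB kinases and CRTCs, 0 were called by edgeR or DESeq2 (3 at an unadjusted p under 0.05), from Rps6ka4 at -0.10 to Rps6ka5 at 0.12. Their median was -0.02. Phosphorylation of CREB is not visible in these counts.

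On the SREBP side, Insig1 was called lower. INSIG1 holds the SREBPs in the endoplasmic reticulum when sterols are plentiful, and its gene is itself an SREBP target. Insig1 read 56.9, 62.3 and 66.5 CPM in WT MWM, 59.7, 56.5 and 58.0 in KIX MWM, 67.4, 70.5, 60.6 and 66.02 in WT CFC and 56.9, 49.7, 56.1 and 58.3 in KIX CFC. All 7 CBP KIX/KIX libraries were below the WT mean, with no overlap in CFC, and the log2 fold change was -0.18 (adjusted p 0.0368). It was 1 of 5 processing genes called, whose highest value was Insig2 at 0.02. Most list calls in this comparison rest on the factor model, since edgeR called 4 genes in all without the factors. Although Srebf2 and Insig1 were lower, edgeR and DESeq2 called 0 of the 18 genes of cholesterol synthesis and uptake (3 at an unadjusted p under 0.05), 11 negative and 7 positive around a median of -0.01, with Nsdhl highest at 0.20. Of 8 genes of fatty acid synthesis, on which SREBP-1 mainly acts, 1 was called higher: Scd1 at 0.20 (adjusted p 0.0157), the lowest being Fasn at -0.03. Scd1 read 147, 168 and 159 CPM in WT MWM and 198, 224 and 149 in KIX MWM, where the groups overlapped, and 157 to 176 in WT CFC and 179 to 183 in KIX CFC, where they did not.

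Of all genes tested in this comparison, 17.8% had an unadjusted p under 0.05. For the remaining members, edgeR called 0 of 5 FOXO regulators (0 at an unadjusted p under 0.05, DESeq2 0), from Akt1 at -0.03 to Sgk1 at 0.03. It called 0 of 12 FOXO targets (4 unadjusted, DESeq2 0), from Bcl2l11 at -0.17 to Cited2 at 0.12. For p53 it called 0 of 3 regulators (0 unadjusted, DESeq2 0), from Mdm4 at -0.04 to Usp7 at 0.02, and 0 of 15 targets (6 unadjusted, DESeq2 2 lower), from Btg2 at -0.23 to Cdkn1a at 0.27. ID proteins bind E proteins such as TCF3 and keep them off DNA. edgeR called 0 of the 4 ID genes, yet all 4 had an unadjusted p under 0.05 and DESeq2 called 1 lower and 1 higher, from Id1 at -0.41 (edgeR adjusted p 0.0506) to Id2 at 0.17. In the KMT2A complex, Psip1, whose protein LEDGF tethers KMT2A to chromatin, was called higher (0.15, adjusted p 0.0324), and the lowest of the 6 was Men1 at -0.06. Beside these calls, edgeR called 2 cell markers lower, Fibcd1 of the CA1 field (-0.30) and Gfap (-0.29), while their lists went both ways. The 6 subfield markers were 4 negative and 2 positive (DESeq2 1 lower and 1 higher), and the 3 astrocyte markers 1 negative and 2 positive with a median of 0.00 (DESeq2 1 lower). DESeq2 also called 1 of 3 neuronal markers lower. Gfap read 331, 293 and 306 CPM in WT MWM and 247, 238 and 229 in KIX MWM, and 293, 289.6, 301 and 335 in WT CFC and 225, 312, 242 and 266 in KIX CFC. All 8 choroid plexus genes were negative (median -0.52) with 0 called by edgeR or DESeq2 and 0 at an unadjusted p under 0.05. Their part in the differences was not tested.

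The second comparison asked what learning changed in WT animals, with both tasks fitted together and 3 factors. edgeR called 175 of 22038 genes (0.794%), 103 lower after learning (0.467%) and 72 higher (0.327%). That balance turned with the processing: TMM scaling gave 43 lower and 76 higher, GC correction 8 and 31, and DESeq2 227 and 529. edgeR called 0 of 9 members, 4 of them at an unadjusted p under 0.05, as were 3721 of all genes tested (16.9%). DESeq2 called 756 genes (3.43%) and 1 member, Creb1 (0.14, DESeq2 adjusted p 0.0219). Without the factors, edgeR called 9 genes (0.0408%) and 0 members, 0 at an unadjusted p under 0.05. Libraries of the same number correlated in this comparison, and with replicate number as a block beside the factors edgeR called 992 genes (4.5%) and again 0 members.

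The 4 members nearest to a call were Creb1 at 0.12 (interval 0.04 to 0.19, adjusted p 0.107), Srebf1 at -0.12 (interval -0.22 to -0.03), Tcf3 at -0.11 (interval -0.20 to -0.03) and Srebf2 at -0.10 (interval -0.17 to -0.02). Creb1 read 28.8, 32.4 and 45.9 CPM in WT homecage and 38.7, 40.4 and 42.9 in WT MWM, then 37.1, 38.9 and 45.6 in WT homecage and 40.1, 39.5, 43.1 and 41.9 in WT CFC. In both experiments the third homecage library was the highest of all WT libraries and the other homecage libraries were the lowest, so the groups overlapped. Tcf3 read 52.2, 52.1 and 35.8 CPM in homecage and 41.2, 41.1 and 37.9 in WT MWM, and 34.0, 30.1 and 26.1 in homecage and 31.1, 31.0, 28.3 and 27.2 in WT CFC. Srebf1 read 235, 202 and 157 CPM in homecage and 160.4, 165 and 144 in WT MWM, and 70.9, 66.2 and 51.7 in homecage and 64.9, 67.9, 64.2 and 67.0 in WT CFC. For both, the third homecage library was the lowest of its group in each experiment. Taken alone, RNA-Seq 1 gave 0.19 for Creb1 and -0.34 for Srebf1, and RNA-Seq 2 gave 0.03 and 0.06. None of these 4 values was called.

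The third homecage libraries therefore bear on these members. They also differed in depth from their group partners. In RNA-Seq 2, replicate 3 had 15.4 M counts, against 37.5 M and 43.7 M in replicates 1 and 2. In RNA-Seq 1, replicate 3 had 62.4 M, against 43.8 M and 46.4 M. WT CFC replicates 1 to 4 had 30.1 M, 43.6 M, 20.6 M and 18.2 M. The part of depth was not tested. Without WT homecage replicate 3 of RNA-Seq 1, edgeR called 2415 of 22494 genes (10.7%) and 4 of 9 members: Creb1 at 0.19 (adjusted p 0.00680), Srebf1 at -0.17 (0.0318), Srebf2 at -0.18 (0.00422) and Tcf3 at -0.19 (0.0152). With replicate 1 or replicate 2 of that group left out instead, edgeR called 32 and 52 genes. Without WT homecage replicate 3 of RNA-Seq 2 it called 534 of 22683 genes (2.35%) and 3 members, Creb1 at 0.16 (0.0329), Srebf1 at -0.20 (0.0143) and Tcf3 at -0.16 (0.0472). Over all 13 settings that leave out 1 library, adjusted p ran from 0.00680 to 0.696 for Creb1 and from 0.0143 to 0.761 for Srebf1. With GC correction Creb1 moved to 0.04, Srebf1 to -0.01, Srebf2 to -0.03 and Tcf3 to -0.05, with 0 members called and 0 at an unadjusted p under 0.05. Members range in GC content of the longest transcript from 39.6% (Creb1) to 61.0% (Tcf3), with Srebf2 at 57.9% and Srebf1 at 58.4%. Atf1 (45.2%) moved from -0.05 to -0.09 with the correction. The part of base composition in these values was tested only by that correction.

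The remaining 5 members were further from a call: Crem at 0.10 (interval -0.08 to 0.29), Atf1 at -0.05 (interval -0.21 to 0.11), Kmt2a at -0.00 (interval -0.12 to 0.11), Foxo3 at -0.02 (interval -0.11 to 0.08) and Trp53 at -0.10 (interval -0.20 to 0.01). The median of the 9 was -0.05, against -0.03 for all genes tested. Crebbp was at -0.07 (interval -0.15 to 0.02).

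Of the 20 CREB targets, edgeR called 9 higher and 0 lower, with 17 positive and 3 negative at a median of 0.25 against -0.03 for all genes, and DESeq2 called 12 higher. Here too the list was chosen with earlier results of these data known, so this is a description. Fos rose from 8.27, 10.7 and 9.31 CPM in homecage to 22.6, 21.98 and 17.7 in WT MWM, and from 3.09, 4.46 and 4.65 to 29.8, 22.2, 29.7 and 30.2 in WT CFC. Neither pair of groups overlapped. Fos had the highest log2 fold change, 1.94 (adjusted p 0.000443), then Nr4a1 at 1.08, Egr1 at 0.97, Junb at 0.90, Fosb at 0.75, Dusp1 at 0.61, Sik1 at 0.56, Gadd45b at 0.47 and Per1 at 0.44. Without the factors 4 of the 20 were called. Among SREBP targets, the cholesterol gene Cyp51 read 35.8, 38.8 and 48.9 CPM in homecage and 44.3, 45.2 and 51.6 in WT MWM, and 52.1, 51.4 and 51.8 in homecage and 61.2, 60.8, 59.3 and 57.9 in WT CFC. All 7 trained libraries were above the homecage mean, with overlap in MWM and none in CFC, and the log2 fold change was 0.20 (adjusted p 0.0387). That call was lost with GC correction, without the factors, and in most settings that leave out 1 library. Of the 18 genes of cholesterol synthesis and uptake, edgeR called 2 higher, Cyp51 among them, and DESeq2 called 4 higher. Their median was 0.05, with Idi1 highest at 0.24. Of the 15 p53 targets, 1 was called, the kinase gene Plk2 at 0.20 (adjusted p 0.0224), and DESeq2 called 3 higher.

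In WT learning, edgeR called none of the genes of the other lists of partners, regulators and targets. At an unadjusted p under 0.05 there were 0 of 3 KIX carriers (Crebbp to Ep300 at 0.01), 1 of 8 paralogs (Foxo1 at -0.12 to Trp63 at 0.07) and 0 of 5 other partners (Myb at -0.17 to Jun at 0.05), with DESeq2 calling 0 in each. There were 3 of 9 CREB kinases and CRTCs (Crtc2 at -0.14 to Camk4 at 0.11), 1 of 5 SREBP processing genes (Scap at -0.09 to Insig2 at 0.04) and 3 of 8 fatty acid genes (Scd1 at -0.11 to Elovl6 at 0.11), with DESeq2 again at 0. FOXO regulators had 1 of 5 (Akt1 at -0.01 to Sgk1 at 0.23; DESeq2 1 higher) and FOXO targets 3 of 12 (Fbxo32 at -0.15 to Txnip at 0.21; DESeq2 2 higher). p53 regulators had 1 of 3 (Usp7 at -0.01 to Mdm2 at 0.11, DESeq2 1 higher), ID genes 0 of 4 (Id3 at -0.12 to Id1 at 0.05, DESeq2 0) and the KMT2A complex 0 of 6 (Ash2l at -0.04 to Dpy30 at 0.06, DESeq2 0). Of the cell markers, Spink8 of the CA1 field was called higher (0.33, adjusted p 0.0481), in a list of 6 with 4 positive and 2 negative (median 0.04, 4 at an unadjusted p under 0.05, DESeq2 1 higher). The 3 thalamic markers were all negative (median -0.32, 1 unadjusted) and 2 of 3 striatal markers were negative (median -0.27, 2 unadjusted), with 0 called by edgeR or DESeq2. The 8 choroid plexus genes were all positive and all at an unadjusted p under 0.05 (median 1.34, edgeR 0 called, DESeq2 2), and their part in the learning values was not tested.

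**Figure D2:**
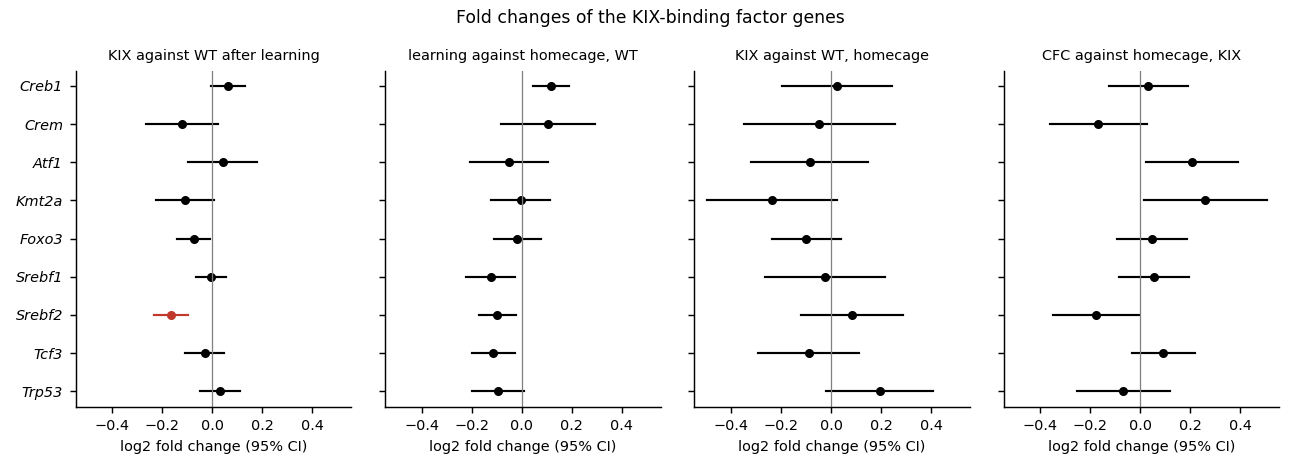
Log2 fold change (points) and 95% confidence interval (lines) of each member in 4 comparisons, fitted with edgeR. Red marks an adjusted p under 0.05, which only Srebf2 reached, in KIX against WT after learning (-0.16, -0.23 to -0.10). The homecage and KIX learning panels use 7 and 8 libraries of RNA-Seq 2 and have wider intervals.

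The third comparison asked whether the mutation altered RNA without training, in KIX homecage against WT homecage of RNA-Seq 2. edgeR called 2 of 18682 genes (0.0107%) and 0 of 9 members. At an unadjusted p under 0.05 were 0 members and 1144 of all genes (6.12%). DESeq2 called 59 genes (0.316%) and 0 members. Kmt2a came lowest, at -0.24 (interval -0.50 to 0.02, adjusted p 0.798), reading 167, 155 and 164 CPM in WT and 168, 138, 126 and 117 CPM in CBP KIX/KIX. Replicate 1 of the mutants was above the WT range and the other 3 were below it. Trp53 came highest, at 0.19 (interval -0.02 to 0.41), with 25.8, 23.1 and 22.9 CPM in WT and 27.9, 28.3, 23.2 and 30.2 CPM in CBP KIX/KIX, replicate 3 being within the WT range and the others above it. Srebf2, called lower after learning, was at 0.08 (interval -0.12 to 0.29), with 212, 196 and 188 CPM in WT and 196, 184, 229 and 234 CPM in CBP KIX/KIX. The remaining 6 ran from Foxo3 at -0.10 to Creb1 at 0.02, and Crebbp was at -0.07. The median of the members was -0.05, that of all genes tested -0.00.

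The 2 high Srebf2 libraries were replicates 3 and 4, which also had the most Gfap. All 3 astrocyte markers were positive in this comparison (median 0.42, edgeR and DESeq2 0 called, 1 at an unadjusted p under 0.05). Aqp4 read 104, 125, 165 and 231 CPM in KIX homecage, against 106 to 122 CPM in WT homecage. Aldoc read 703, 707, 671 and 766 CPM, against 659 to 681 CPM, with replicate 3 within the WT range. Some markers of brain regions moved in replicates 3 and 4 as well. The CA1 gene Fibcd1 read 162, 131, 95.7 and 56.9 CPM in KIX homecage, against 103 to 157 CPM in the other 11 libraries of RNA-Seq 2. Wfs1, also of CA1, read 103, 108, 107 and 113 CPM, all below the 151, 133 and 145 CPM of WT homecage, without a further fall in replicates 3 and 4. Neurod6 read 200.5, 211, 188 and 194 CPM, against 187, 191 and 185 CPM. The 6 subfield markers were 4 positive and 2 negative (edgeR 0 called, 2 at an unadjusted p under 0.05, DESeq2 1 lower). All 8 choroid plexus genes were positive (median 0.63; edgeR and DESeq2 0 called, 0 at an unadjusted p under 0.05). Wfs1, Neurod6 and the striatal genes Drd1 and Ppp1r1b were chosen after their values were seen. Drd1 read 4.07, 12.8, 12.5 and 18.7 CPM, against 3.71 to 6.52 CPM in the others, and Ppp1r1b 33.3, 34.5, 69.1 and 60.4 CPM, against 27.4 to 50.9 CPM. The remaining striatal marker, Drd2, was less uniform. It read 2.498, 3.23, 4.19 and 5.51 CPM in KIX homecage, against 3.04 to 4.53 CPM in the other 11 libraries. For Drd2, replicate 4 was thus above that range, replicates 2 and 3 were within it and replicate 1 was below it. The 3 striatal markers had a median of 0.59 and the 3 thalamic markers one of -0.45, each with 0 called by edgeR or DESeq2 and 1 at an unadjusted p under 0.05. In replicates 3 and 4 the 18 cholesterol genes, led by Hmgcs1, summed to 1351 and 1387 CPM, against 899 and 849.6 CPM in replicates 1 and 2 and 857 to 904 in WT homecage. All 18 genes were positive in this comparison (median 0.26; edgeR 0 called, 3 at an unadjusted p under 0.05, DESeq2 0), with Hmgcs1 highest at 0.51. A fit that leaves out replicates 3 and 4 was chosen after these values were seen, and it keeps replicate 2, which had high Gfap and Drd1 as well. In it edgeR called 3 genes (0.016%) and 0 members, 1 at an unadjusted p under 0.05 (Trp53 at 0.23), Srebf2 turned to -0.06, and the cholesterol genes were 8 positive of 18 (median -0.03). Kmt2a moved to -0.08 and Creb1 turned from 0.02 to -0.10. The 20 CREB targets moved from a median of 0.49 to -0.17 (edgeR 0 called in both, DESeq2 0 in the full comparison), with Fos at 2.77 and Nr4a2 at -0.38 as the ends of the list when all libraries were used. Without replicate 3 Fos turned to -0.57. What set these libraries apart was not tested.

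The other lists had 0 edgeR calls in homecage, where 1144 of all 18682 genes tested (6.12%) had an unadjusted p under 0.05. At an unadjusted p under 0.05 there were 1 of 3 KIX carriers (Crebbp to Med15 at 0.24), 0 of 8 paralogs (Trp73 at -0.19 to Trp63 at 0.10), 0 of 5 other partners (Myb at -0.25 to Gli3 at 0.17) and 1 of 9 CREB kinases and CRTCs (Rps6ka5 at -0.15 to Mapkapk2 at 0.27). SREBP processing had 0 of 5 (Insig2 at -0.10 to Insig1 at 0.16) and fatty acid synthesis 2 of 8, all 8 positive (Elovl6 at 0.00 to Scd1 at 0.50), of which DESeq2 called 1. FOXO regulators had 0 of 5 (Akt1 at -0.13 to Sgk1 at 0.24), FOXO targets 1 of 12 (Txnip at -0.30 to Gadd45a at 0.52), and p53 regulators 0 of 3 (Mdm4 at -0.11 to Usp7 at 0.01). Of the p53 targets, 14 of 15 were tested, Gdf15 being too low, and 0 had an unadjusted p under 0.05 (Bbc3 at -0.34 to Cdkn1a at 0.70). ID genes had 0 of 4 (Id4 at -0.18 to Id1 at 0.44) and the KMT2A complex 0 of 6 (Rbbp5 at -0.08 to Psip1 at 0.05). Apart from the 1 fatty acid gene, DESeq2 called 0 in these lists.

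**Figure D3:**
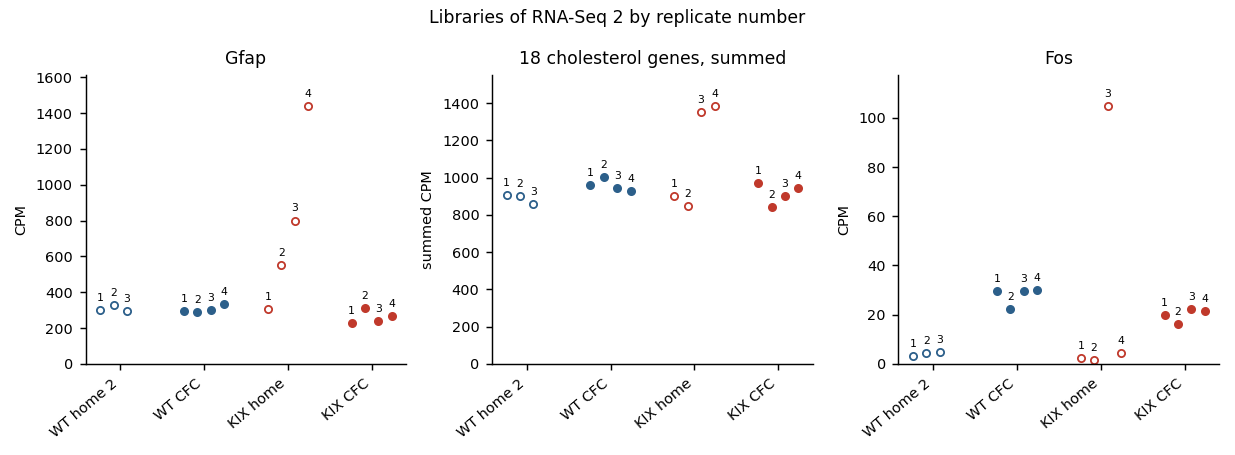
Gfap, the summed 18 genes of cholesterol synthesis and uptake, and Fos in the 15 libraries of RNA-Seq 2 (CPM), with replicate numbers beside the points, WT in blue, CBP KIX/KIX in red and homecage open. KIX homecage replicates 3 and 4 are above all other libraries for the cholesterol sum (1351 and 1387 CPM), and replicate 3 is alone in its Fos level (105 CPM).

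The fourth comparison set KIX CFC against KIX homecage, the response to training within the mutants. edgeR called 2 of 17717 genes (0.0113%) and 0 of 9 members, 3 at an unadjusted p under 0.05, as were 1670 of all genes (9.43%), and DESeq2 called 44 genes (0.248%) and 0 members. Libraries of the same number correlated here, and with replicate number as a block edgeR called 2 genes, 1 of them shared, and 0 members, 2 at an unadjusted p under 0.05, as were 1949 of all genes (11.0%). Without the block the 3 were Kmt2a at 0.26 (interval 0.02 to 0.50, adjusted p 0.514), Atf1 at 0.21 (interval 0.02 to 0.39) and Srebf2 at -0.18 (interval -0.35 to -0.01). Kmt2a read 168, 138, 126 and 117 CPM in KIX homecage and 177, 146, 164 and 171 in KIX CFC. Atf1 read 9.92, 9.13, 8.93 and 8.40 CPM and then 10.4, 10.5, 10.5 and 10.7, the member whose groups did not overlap. Srebf2 read 196, 184, 229 and 234 CPM and then 194, 192, 182 and 178, apart only through homecage replicates 3 and 4. Leaving those out, edgeR called 9 genes (0.0472%) and 0 members, with Kmt2a at 0.10, Atf1 at 0.14 and Srebf2 at -0.03. At an unadjusted p under 0.05 were then 1 member (Creb1 at 0.16) and 1126 of all genes (5.9%). With all libraries the other members ran from Crem at -0.17 to Tcf3 at 0.09, with a median of 0.05 over the 9 and 0.00 over all genes tested.

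In the mutants all 18 cholesterol genes were negative (median -0.21; edgeR 0 called, 3 at an unadjusted p under 0.05, DESeq2 0), with Hmgcs1 lowest at -0.49, and without replicates 3 and 4 of KIX homecage 5 of 18 were negative (median 0.06). All 3 astrocyte markers were negative as well (median -0.45, 3 at an unadjusted p under 0.05) and all 8 choroid plexus genes positive (median 0.60, 0 unadjusted), with 0 called by edgeR or DESeq2. CREB targets had a median of -0.24 with 0 called (5 unadjusted, DESeq2 0), from Nptx2 at -2.13 to Sik1 at 0.80. With the replicate block the median was -0.08, with 12 negative and 8 positive and 0 called (6 unadjusted). The values also moved with the KIX homecage libraries used. Without replicate 1, edgeR called 155 genes (91 lower, 64 higher), with 2 of the 20 targets called lower, at a median of -0.44 for the targets. Without replicate 3 edgeR called 13 genes (0.0694%), 6 of the 20 targets among them and all higher, and 0 members (0 at an unadjusted p under 0.05), the targets' median being 0.07, with 10 of 20 negative. Without replicates 3 and 4 the median was 0.41, with 4 called higher. Fos then stood at 3.25 and was called. Comparisons with WT homecage or KIX CFC share libraries with those above, so their agreement is not counted as a repeat.

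The other lists had 0 edgeR and 0 DESeq2 calls in KIX learning. Unadjusted p was under 0.05 for 1 of 3 KIX carriers (Med15 at -0.23 to Ep300 at 0.12), 0 of 8 paralogs (Foxo4 at 0.01 to Trp63 at 0.30), 1 of 5 other partners (Brca1 at -0.12 to Myb at 0.54) and 1 of 9 CREB kinases and CRTCs (Mapkapk2 at -0.24 to Rps6ka5 at 0.20). It was under 0.05 for 0 of 5 SREBP processing genes (Insig1 at -0.21 to Insig2 at 0.10) and 3 of 8 fatty acid genes (Scd1 at -0.29 to Elovl6 at -0.04). For the FOXO regulators it was 0 of 5 (Sgk1 at -0.26 to Akt1 at 0.14), for FOXO targets 3 of 12 (Gadd45a at -0.66 to Ddit4 at 0.40), for p53 regulators 1 of 3 (Usp7 at -0.02 to Mdm2 at 0.12) and for the 14 tested p53 targets 2 (Cdkn1a at -0.66 to Eda2r at 0.42). ID genes had 2 of 4 (Id1 at -0.50 to Id4 at 0.22) and the KMT2A complex 0 of 6 (Psip1 at -0.02 to Rbbp5 at 0.10).

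Whether responses differed between groups was tested with interaction terms. For the CFC response of mutants against that of WT, edgeR called 0 of 18851 genes (0%), 903 at an unadjusted p under 0.05, and 0 of 9 members, 0 unadjusted, while DESeq2 called 1 gene (0.0053%) and 0 members. The members ran from Srebf2 at -0.16 (interval -0.38 to 0.05) to Kmt2a at 0.23 (interval -0.05 to 0.52). For the WT response in CFC against that in MWM, edgeR called 3 of 22038 genes (0.0136%), namely Fos, Sik1 and Btg2, and 0 members. At an unadjusted p under 0.05 were 1645 of all genes (7.46%) and 2 members: Crem at -0.49 (interval -0.94 to -0.05, adjusted p 0.639) and Srebf1 at 0.40 (interval 0.03 to 0.77, adjusted p 0.641). DESeq2 called 29 genes (0.132%) and 0 members, and with replicate number as a block edgeR called 6 genes and 0 members. Without WT homecage replicate 3 of RNA-Seq 1, edgeR called 892 of 22494 genes (3.97%) and 2 members, Srebf1 at 0.54 (adjusted p 0.0432) and Trp53 (adjusted p 0.0467). Crem read 5.04, 6.44 and 7.30 CPM in homecage and 7.19, 7.97 and 8.76 in WT MWM, against 10.2, 11.6 and 14.8 in homecage and 12.001, 10.7, 10.3 and 10.5 in WT CFC. It was thus higher after MWM than the homecage mean and lower after CFC, with overlap in both. For the genotype difference in CFC against that in MWM, edgeR and DESeq2 each called 0 of 21489 genes (0%), 1389 by edgeR at an unadjusted p under 0.05, and 0 members, 0 unadjusted. The members ran from Srebf1 at -0.06 to Kmt2a at 0.23.

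Across the 24 libraries, with each experiment centred on its own mean, the 36 pairs of members had Pearson correlations of log2 CPM from -0.87 (Creb1 with Tcf3) to 0.83 (Srebf1 with Tcf3), with a median of 0.12. Creb1 was positive only with Crem (0.63). Libraries of a group share their training and genotype, and libraries also share depth and base composition, so these values are a description. The genes most like each member by the same measure were Clock (0.94) and Trpm7 (0.94) for Creb1, Ostm1 (0.81) and Uso1 (0.77) for Crem, and Creb5 (0.82) and Sema6a (0.79) for Atf1. Kmt2a was nearest to Srrm2 (0.93) and Cramp1l (0.93), Foxo3 to Osbp2 (0.91) and Gbf1 (0.85), and Srebf1 to Rela (0.88) and Map3k11 (0.88). Srebf2 was nearest to Pip5k1c (0.96) and Rnf157 (0.96), Tcf3 to Lpcat4 (0.92) and Rnpepl1 (0.92), and Trp53 to Ampd2 (0.88) and Eif6 (0.87).

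RefSeq promoter windows (GRCm38.p6, 250 bases before to 50 after each start) were matched for 8 of the 9 members, in 10 windows, with Crem not among them. On both strands, 4 motifs were searched: the full cAMP response element TGACGTCA, its core TGACG, the sterol element core TCACCCCA and the E-box CACGTG. The full element contains the core. Of 32841 windows, 1.79% held the full element, 20.8% its core, 1.56% the sterol core and 7.15% the E-box. None of the windows of these 8 members held the full element, and the core was found in Atf1, Foxo3 and Srebf2. Atf1 and Trp53 held an E-box. Srebf2 was the member with a sterol core, and its CRE core at chr15:82147097-82147101 and sterol core at chr15:82147107-82147114 lie 5 bases apart. The stretch shown was chosen after the values of Srebf2, the called member, were seen. Its end is just before the GENCODE start of the gene (chr15:82147181), which lies inside the RefSeq window and is not the RefSeq start. The stretch is shown because it places the letters tied to CREB beside those tied to the SREBPs. It is chr15:82147019-82147180 on the plus strand, 162 bases, with both motifs in capitals:
Srebf2: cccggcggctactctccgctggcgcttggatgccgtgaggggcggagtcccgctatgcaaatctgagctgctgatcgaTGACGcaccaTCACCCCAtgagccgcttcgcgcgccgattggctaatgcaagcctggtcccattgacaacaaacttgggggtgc
These matches describe letters in the window, and no binding was measured here.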

How the data were processed

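Gene counts from 24 libraries of mouse dorsal hippocampus were used as deposited: per the labels and the study's methods, the authors aligned reads with STAR to GRCm38 and made raw counts per gene with featureCounts 1.4.4 (SAMtools 1.6 is also listed). Gene names and positions came from GENCODE. Members and lists were chosen with earlier results of these data known.

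Genes were filtered with filterByExpr (minimum count 10, minimum total 15), scaled by the upper quartile and fitted with edgeR 4.0.16 by quasi-likelihood in R 4.3.3, with Benjamini-Hochberg adjustment over all genes tested and a call at 0.05. Genotype after learning used the experiment and 4 RUVr factors, and WT learning 3. RUVr was reimplemented from its description, as was correction for GC content in 10 bins. The other 5 comparisons used no factors. DESeq2 1.42.0 was the second tool. For log2 CPM, 2 counts were added as prior. In 7 comparisons and their alternatives (TMM, no filter, GC correction, factors, single experiments, replicate block, leaving out each library, and leaving out KIX homecage replicates 3 and 4, which was chosen after the data were seen), 141 fits were run.

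Libraries of one replicate number in different groups were compared by correlation of residual log2 CPM. Every such pair was above 0.1 within WT learning (0.138, 0.100 and 0.183 in RNA-Seq 1, and 0.305, 0.375 and 0.189 in RNA-Seq 2). The same held within KIX learning (0.146 to 0.248), and results with the block are given for both. In the genotype comparisons some pairs were above 0.1 and others were not. Over all groups of RNA-Seq 2, 16 of 21 pairs of the same number were above 0.1, pairs across genotypes among them, against 14 of 63 pairs of different number. The genes named are the members, Crebbp, every listed gene that was called in 1 of the first 4 comparisons, otherwise the lowest and highest of each list, and for each member the 2 genes most correlated with it, except that some genes of the cholesterol list were not used here. Tables and figures used Python 3.11.15, pandas 2.3.3 and matplotlib 3.10.9.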

Additional observations from a re-analysis of the deposited data

How the results depend on the processing

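Of the members' values under all alternatives, 1098 kept their direction and their side of the threshold, 89 uncalled values changed sign, 12 were newly called, 7 calls were lost and 0 called values reversed. The median of all genes lay between -0.06 and 0.07 over 141 fits. Srebf2 in genotype after learning was no longer called without factors (adjusted p 0.439), with 2 factors (0.0503), in RNA-Seq 1 alone (0.439), in RNA-Seq 2 alone (1.00), with the replicate block and no factors (0.484), with GC correction (0.0618) and without KIX MWM replicate 2 (0.0710). With the block and factors, Kmt2a (0.00145) and Foxo3 (0.0452) were called as well, in a fit that called 2877 genes against 520 in the main fit.

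For genotype after learning (520 calls), counts were 4 without factors, 131 with 2 factors, 3 in RNA-Seq 1 alone, 1 in RNA-Seq 2 alone, 2877 with block and factors, 8 with the block alone, 886 by DESeq2, 253 without the filter (196 lower, 57 higher) and 166 with GC correction (123 lower, 43 higher). Leaving out 1 library gave 201 to 881: 201 without KIX MWM replicate 2, 247 without KIX MWM replicate 1, 291 without WT MWM replicate 1 or WT CFC replicate 1, 273 without KIX CFC replicate 4 and 881 without KIX CFC replicate 1. Members called were 0 without factors, with 2 factors, in either experiment alone, with the block alone and with GC correction, 3 with block and factors, and 0 to 1 when 1 library was left out.

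For WT learning (175 calls), counts were 9 without factors, 98 with 2 factors, 3 in RNA-Seq 1 alone, 21 in RNA-Seq 2 alone, 992 with block and factors, 12 with the block alone, 756 by DESeq2 (227 lower, 529 higher), 84 without the filter (32 lower, 52 higher) and 39 with GC correction (8 lower, 31 higher). TMM scaling gave 43 lower and 76 higher, where the upper quartile gave 103 and 72. Leaving out 1 library gave 29 to 2415: for WT homecage of RNA-Seq 1, 32, 52 and 2415 without replicates 1, 2 and 3, for WT MWM 66, 44 and 47, for WT homecage of RNA-Seq 2 29 and 534 without replicates 1 and 3, and for WT CFC 471, 55 and 39 without replicates 1, 3 and 4. Members called were 1 by DESeq2 and 0 to 4 when 1 library was left out.

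Genotype in homecage (2 calls) gave 0 with the block, 59 by DESeq2, 10 without the filter and 5 with all RNA-Seq 2 libraries in the fit, and 0 to 7 with 1 library left out (7 without KIX homecage replicate 1). KIX learning (2 calls) gave 2 with the block, 44 by DESeq2, 0 with all RNA-Seq 2 libraries, 9 without KIX homecage replicates 3 and 4 (chosen after the data were seen) and 0 to 155 with 1 library left out, 155 without KIX homecage replicate 1 and 13 without replicate 3. Genotype by training (0 calls) gave 1 by DESeq2 and 0 to 63 with 1 library left out, 63 without KIX homecage replicate 1. Learning by paradigm (3 calls) gave 6 with the block, 1 with TMM, 29 by DESeq2, 7 without the filter and 0 to 892 with 1 library left out, 892 without WT homecage replicate 3 of RNA-Seq 1, where 0 to 2 members were called.

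In KIX learning, some CREB targets turned from negative to called positive, Fos (2.91), Junb (1.11) and Nr4a1 (1.29) without KIX homecage replicate 3, and Fos (3.25) and Junb (1.09) without replicates 3 and 4. Without replicate 1, 2 of the 20 were called lower, and without replicate 2 these 3 stayed negative (Fos -0.88, Junb -0.46, Nr4a1 -0.56). The cause of each change was not tested. Depth was lowest in replicates 3 and 4 of RNA-Seq 2, and the interaction terms had the widest intervals.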
